A study of Homo sapiens with 8 samples.

Results

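The 9 genes MBNL3, TAB2, DLG3, CCDC80, SMPD3, OPN3, FIG4, CRACD and PPFIBP1 were followed across K-562 cultures with altered TASOR or TASOR2. They were picked by name from the 60 genes that the authors' deposited tables list in both TASOR knockout groups, out of 268 genes listed for the knockout and 261 for the knockout with a FLAG-TASOR transgene. Their fold changes in those 2 tables are therefore a description of the choice and were not tested again here. Of the 9 genes, 7 were listed as lower and 2, CRACD and PPFIBP1, as higher in both tables. Agreement in sign was general: of all 60 shared genes, 59 had the same sign in both, 35 as lower and 24 as higher.

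K-562 is an established human leukaemia cell line with erythroid features. Total RNA depleted of ribosomal RNA was sequenced from 8 libraries in 4 groups of 2: wild-type cells with a negative guide RNA (the controls), cells with the TASOR KO genotype, the same genotype with a FLAG-TASOR transgene added, and wild-type cells given a FLAG-TASOR2 transgene. Per the labels' protocols, knockout populations were grown from single sorted cells after CRISPR/Cas9 transfection, and cells were transduced with lentivirus carrying either an empty puromycin resistance vector or a tagged transgene. The labels name a guide for the controls and none for the FLAG-TASOR2 cells, and they do not say whether the 2 replicates of a knockout group came from separate clones. Replicates are described as biological in the design text, without their source, so the authors' p-values reflect variation between libraries, which may be technical. All 3 comparisons use the same control libraries, so a shared direction is no independent evidence.

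TASOR is a subunit of the HUSH (human silencing hub) complex, which recruits histone methylation to LINE-1 retrotransposons, among other sequences, and represses them. TASOR2 is its paralog. The 9 genes have no single pathway in common: they include a splicing regulator, a kinase adaptor, an opsin, lipid enzymes, a matrix protein and scaffold proteins.

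The windows upstream of annotated transcription starts show how unlike the annotated promoters of these genes are. RefSeq promoter sequences (GRCh38.p14) were found for 8 of the 9 genes, in 15 windows of 300 bases, and not for SMPD3. A CpG-rich and a CpG-poor window of the lower genes and a window of each higher gene are printed below as the 250 bases before the start, with GGGCGG, the GC box read by SP and KLF factors, in capitals on either strand (CCGCCC on the other strand).
OPN3, minus strand, chr1:241640370-241640619: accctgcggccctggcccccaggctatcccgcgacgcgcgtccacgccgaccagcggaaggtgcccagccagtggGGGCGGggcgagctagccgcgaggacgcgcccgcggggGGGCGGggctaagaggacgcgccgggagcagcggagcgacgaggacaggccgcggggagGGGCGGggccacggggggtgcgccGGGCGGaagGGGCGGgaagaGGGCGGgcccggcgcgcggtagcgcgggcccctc
CCDC80, minus strand, chr3:112641144-112641393: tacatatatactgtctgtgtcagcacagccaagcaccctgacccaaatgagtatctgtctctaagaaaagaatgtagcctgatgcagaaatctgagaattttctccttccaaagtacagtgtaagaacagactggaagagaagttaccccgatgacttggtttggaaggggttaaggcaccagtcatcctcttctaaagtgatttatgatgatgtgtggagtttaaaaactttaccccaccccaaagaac
CRACD, plus strand, first listed start, chr4:56048848-56049097: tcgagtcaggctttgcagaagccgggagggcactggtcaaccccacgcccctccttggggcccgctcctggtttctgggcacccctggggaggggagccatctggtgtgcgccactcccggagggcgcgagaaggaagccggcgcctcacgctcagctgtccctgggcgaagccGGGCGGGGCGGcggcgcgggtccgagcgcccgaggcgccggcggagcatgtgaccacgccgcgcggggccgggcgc
PPFIBP1, plus strand, chr12:27523956-27524205: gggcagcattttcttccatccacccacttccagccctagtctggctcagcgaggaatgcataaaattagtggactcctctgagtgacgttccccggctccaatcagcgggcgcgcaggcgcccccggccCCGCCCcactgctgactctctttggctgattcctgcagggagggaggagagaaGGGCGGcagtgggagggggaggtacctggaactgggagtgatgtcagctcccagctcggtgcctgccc

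The OPN3 window held 6 GC boxes and 39 CpG dinucleotides in these 250 bases, whereas that of CCDC80 held 1 CpG and no GC box. CRACD had 2 overlapping GC boxes and 30 CpG, and PPFIBP1 had 2 GC boxes, 1 on each strand, and 11 CpG. Over the full 300 bases, OPN3 had 42 CpG and CCDC80 had 2, beside a median of 14 in all 35116 windows of the RefSeq table. A GC box on either strand was present in 45.0% of all those windows. Among those of the 9 genes, it was in the windows of OPN3, FIG4 and PPFIBP1 and in window 1 of CRACD and of TAB2. It was also in windows 1 and 3 of DLG3 and window 2 of MBNL3, and in no other. AGATAA, the GATA-factor core searched on both strands, was present in 10.3% of all windows and in 1 window each of FIG4, CRACD and DLG3. MBNL3 had 4 listed windows, whose CpG counts were 16, 17, 2 and 7, and DLG3 had 3, with 15, 9 and 29. TATAAA, searched on both strands, was in 11.5% of all windows and, among those of the 9 genes, in 2 MBNL3 windows. CACGTG (7.26% of all windows) and TGACGTCA (1.85%) had no match in the 15 windows. Genes listed as lower thus included both CpG-rich and CpG-poor starts. So did CRACD, listed as higher, with 37 and 3 CpG in its 2 windows. Which starts the K-562 cells use is not known here, so these windows need not be the promoters of the transcripts counted.

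No library has values of its own in the tables, so depth is unknown and the values below are group comparisons as deposited. Approximate standard errors (SE) were derived from the deposited F score. In the authors' deposited table TASOR itself was listed as lower in the knockout by -1.08 on the log2 scale (approximate SE 0.23, adjusted p 1.00), and it was not listed for the FLAG-TASOR group. In the authors' deposited table TASOR2 was listed as higher in the FLAG-TASOR2 cells, by 2.26 (approximate SE 0.27, adjusted p 0.125). Of 11 K-562 erythroid markers, 0 were listed in the knockout, 1 with FLAG-TASOR and 3 with FLAG-TASOR2, all as higher. None of 3 lymphoid or 3 fibroblast markers was listed in any table. Of 5 megakaryocyte markers, 2 were listed, as higher and for FLAG-TASOR2 only. Among all genes tested, 0.609% were listed as higher with FLAG-TASOR and 2.56% with FLAG-TASOR2. Whether the markers differ from these shares was not tested. Of 8 genes of HUSH and its cofactors, none besides TASOR and TASOR2 was listed. Since the tables list changed genes only, they do not show whether an unlisted marker was present. The embryonic globin gene HBE1 was listed with FLAG-TASOR at 2.24 (approximate SE 0.57) and a log2 mean expression of 10.8 in the authors' deposited table, and the part of such shifts in the values of the 9 genes was not tested. ITGAM, a myeloid integrin gene among the monocyte markers, was listed as lower in all 3 tables, while CD14, the other marker of that list, was in none.

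Counts of listed genes set the background. Among genes tested for the knockout, 0.936% of 13992 were listed as lower and 0.979% as higher, and 7 and 2 of the 9 genes were. For FLAG-TASOR, 1.26% were listed as lower and 0.609% as higher, of at least 13957 genes tested, and again 7 and 2 of the 9 genes were. These counts follow from how the genes were chosen. None of the 9 genes had an adjusted p below 0.05 in the authors' deposited tables (0 of 9 in each of the 2, by an edgeR-type F-test), although all 9 had an unadjusted p below 0.05 in both, which is a condition of listing. The share of all tested genes with an adjusted p below 0.05 was 0.00715% in the knockout, 0% with FLAG-TASOR and 0.0357% with FLAG-TASOR2. No gene of the 9 can therefore be said to have risen or fallen, and "listed as" is used throughout.

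The median absolute log2 fold change of the 9 genes was 2.17 in the knockout, beside 2.00 for all 268 genes of the authors' deposited table. With FLAG-TASOR it was 2.27, beside 1.73 for all 261 genes of the authors' deposited table. Those larger sets include the 9 genes and many genes listed in a single knockout table, so they are not like sets. The fold changes compared are also those used by the choice, so these medians do not show that the 9 genes stand out. The approximate SEs of the 9 genes ran from 0.33 to 0.89 in the knockout and from 0.37 to 0.92 with FLAG-TASOR. Nearest to the limits of fold and p lay FIG4, whose absolute fold changes of 1.16 and 1.17 in the authors' deposited tables are just above the minimum of 1, and OPN3, whose p with FLAG-TASOR was 0.0455 in the authors' deposited table. Nearest to the expression limit, a log2 mean of 1, lay CRACD, at 1.17 with FLAG-TASOR in the authors' deposited table. Genes just outside the limits have no values here.

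**Figure D1:**
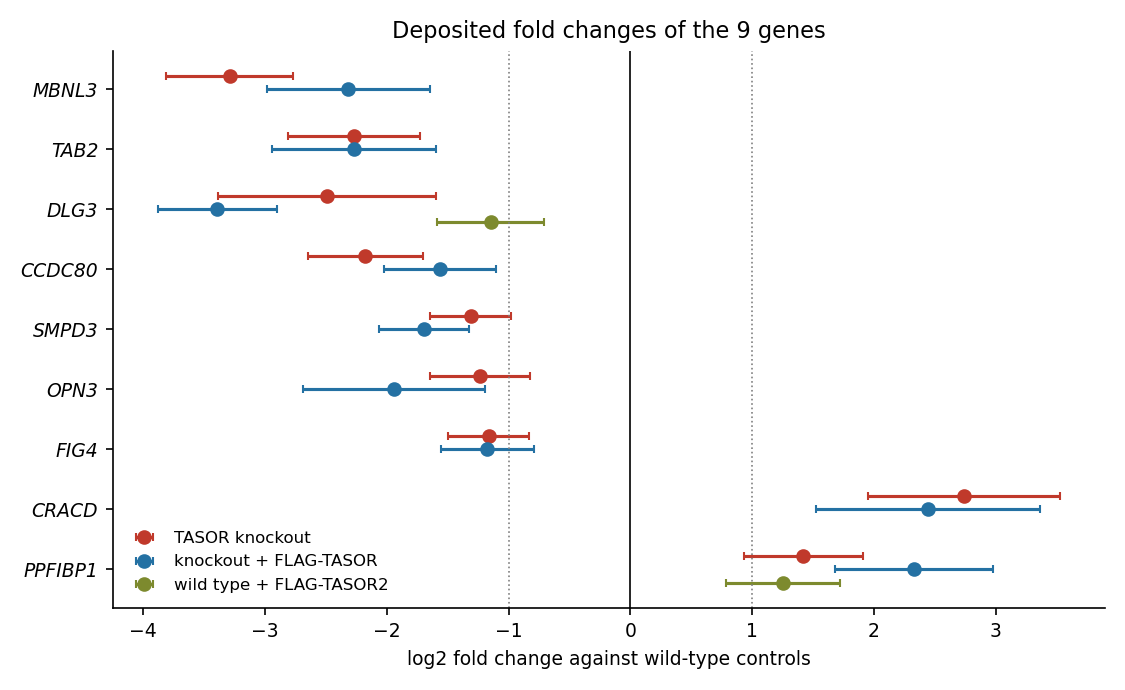
Log2 fold change against the wild-type controls (x axis) of the 9 genes in the authors' deposited tables, with bars of 1 approximate SE and dotted lines at the listing limit of 1 on either side of 0. Points are present only where a gene was listed; 7 genes lie below 0 and 2 above it in both knockout groups, and only DLG3 and PPFIBP1 have a point for FLAG-TASOR2.

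A mean level per group was recovered by combining the deposited fold change with the deposited mean expression, in CPM (counts scaled to a common library total), with equal weight for both groups. Each table thereby gives its own estimate of the same control libraries, and the 2 knockout tables can be checked against each other. Over the 60 genes listed in both, the log2 ratio of the 2 control estimates had a median of 0.05 and an SD of 0.16, and 51 lay within 0.2 of 0. CPM is not corrected for gene length, so levels are compared only within a gene. In bulk RNA, fewer cells with a transcript and less of it per cell cannot be told apart.

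MBNL3 encodes a muscleblind-like RNA-binding protein that regulates alternative splicing. It was listed as lower in the knockout at -3.29 (approximate SE 0.52, p 0.00114, adjusted p 0.839) and with FLAG-TASOR at -2.31 (approximate SE 0.67, p 0.0164, adjusted p 0.999) in the authors' deposited tables. In the knockout it had the lowest log2 fold change of the 9 genes. The implied level was 1.78 CPM in the knockout and 2.22 CPM with FLAG-TASOR. The control level was 17.4 CPM from the knockout table but 11.0 CPM from the FLAG-TASOR table, 1.58-fold apart, which was the largest gap of the 60 shared genes. The fold changes of MBNL3 therefore differ by 0.97 (log2). Of this, 0.66 lies in the 2 estimates of the same control libraries and is no change in the controls, and 0.31 lies in the implied levels of the knockout groups. With control estimates so far apart, the implied levels of the 2 knockout groups may not be on the same scale.

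TAB2 encodes an adaptor that links ubiquitin chains to the TAK1 kinase in NF-kappaB signalling. It was listed as lower at -2.27 in the knockout (approximate SE 0.54, p 0.00728) and also at -2.27 with FLAG-TASOR (approximate SE 0.67, p 0.0182) in the authors' deposited tables. Its equal folds came with unequal levels: 12.4 CPM in the controls and 2.57 CPM in the knockout from the knockout table, against 8.88 CPM in the controls and 1.85 CPM with FLAG-TASOR from the FLAG-TASOR table. The control gap, 1.39-fold, was the second largest of the 60 genes. Between the 2 knockout tables, MBNL3 and TAB2 thus had the largest control gaps of the 60 genes, and the cause was not tested.

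DLG3 encodes SAP102, a membrane-associated scaffold that clusters receptors at synapses and cell junctions. It was listed as lower at -2.49 in the knockout (approximate SE 0.89, p 0.0360) and at -3.39 with FLAG-TASOR (approximate SE 0.49, p 0.000730) in the authors' deposited tables. With FLAG-TASOR its p had rank 5 of the 261 listed genes, yet the authors' deposited table gives an adjusted p of 0.999. The control level was 12.6 and 12.4 CPM from the 2 tables, and the knockout groups were at 2.25 and 1.18 CPM. The knockout value had the largest SE of the 9 genes in that table, so the fold there is the least precise.

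CCDC80, a secreted protein of the extracellular matrix, was listed as lower at -2.17 (approximate SE 0.47, p 0.00475) in the knockout and at -1.57 (approximate SE 0.46, p 0.0172) with FLAG-TASOR in the authors' deposited tables. Its implied level was 12.7 and 13.7 CPM in the controls, 2.81 CPM in the knockout and 4.63 CPM with FLAG-TASOR. CCDC80 was the only lower gene besides MBNL3 whose implied level was higher with FLAG-TASOR than without it, and the 5 others were lower. Of these, TAB2 and FIG4 had nearly equal folds. Their implied levels differed by -0.47 and -0.12 (log2), about the size of their control gaps, 0.48 and 0.11.

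SMPD3 and FIG4 act on membrane lipids. SMPD3 encodes neutral sphingomyelinase 2, which makes ceramide from sphingomyelin, and FIG4 a phosphatase of the complex that controls the endolysosomal lipid PI(3,5)P2. SMPD3 was listed as lower at -1.31 (approximate SE 0.33, p 0.00981) in the knockout and at -1.70 (approximate SE 0.37, p 0.00509) with FLAG-TASOR in the authors' deposited tables. It was the only 1 of the 9 genes with an unadjusted p below 0.01 in both. FIG4 was listed as lower at -1.16 (approximate SE 0.33, p 0.0155) and -1.17 (approximate SE 0.39, p 0.0263) in the authors' deposited tables. FIG4 therefore stood at 44.7% and 44.4% of its control level, the nearest to equal of the percentages besides those of TAB2, 20.7% and 20.8%. For SMPD3 the levels were 19.8 and 18.9 CPM in the controls, 7.99 CPM in the knockout and 5.84 CPM with FLAG-TASOR.

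OPN3 encodes encephalopsin, an opsin expressed in many tissues outside the eye. It was listed as lower at -1.23 (approximate SE 0.41, p 0.0275) in the knockout and at -1.94 (approximate SE 0.75, p 0.0455) with FLAG-TASOR in the authors' deposited tables. The levels were 15.8 and 16.5 CPM in the controls, 6.71 CPM in the knockout and 4.31 CPM with FLAG-TASOR. OPN3 overlaps CHML on the same strand and KMO and WDR64 on the opposite strand, and none of the 3 was listed in any table. Overlaps of the other genes included SUMO4 with TAB2 on the same strand, and PRMT7 with SMPD3, RAP2C-AS1 with MBNL3, DLG3-AS1 with DLG3 and TAB2-AS1 with TAB2 on the opposite strand, none of them listed, while CRACD and PPFIBP1 overlap only unlisted noncoding genes or pseudogenes. The use of strand in counting is not given in these sources, so reads of such overlapping genes cannot be told apart.

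CRACD and PPFIBP1 were the 2 genes listed as higher. CRACD, which was named KIAA1211 in GENCODE 29, encodes an inhibitor of actin capping proteins. It was listed as higher at 2.74 (approximate SE 0.79, p 0.0157) in the knockout and at 2.44 (approximate SE 0.92, p 0.0423) with FLAG-TASOR in the authors' deposited tables. Its control level was low, 0.73 and 0.70 CPM, against 4.87 CPM in the knockout and 3.81 CPM with FLAG-TASOR. The log2 mean expression of CRACD, 1.49 and 1.17, thus passed the limit of 1 only through the altered groups.

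PPFIBP1 encodes liprin-beta-1, a scaffold of cell adhesion and cortical membrane complexes. It was listed as higher at 1.42 (approximate SE 0.49, p 0.0314) in the knockout and at 2.33 (approximate SE 0.65, p 0.0140) with FLAG-TASOR in the authors' deposited tables. Its level was 3.21 and 3.81 CPM in the controls, 8.59 CPM in the knockout and 19.1 CPM with FLAG-TASOR. Among the 9 genes it had the largest difference in implied level between the 2 knockout groups, 1.15 (log2). The log2 ratio of its 2 control estimates was -0.25, knockout table over FLAG-TASOR table. By fold change its difference was 0.91, less than the 0.97 of MBNL3.

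**Figure D2:**
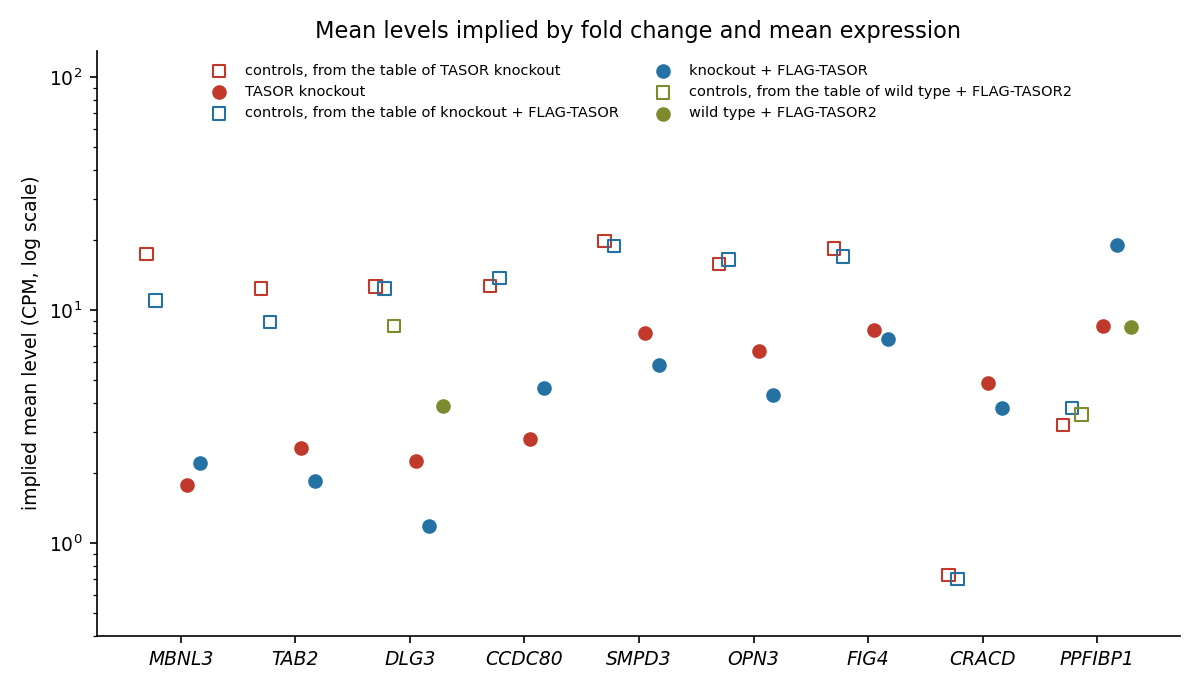
Implied mean level per group in CPM on a log scale (y axis) for each of the 9 genes (x axis). Open squares are the same controls as each table gives them and filled circles the altered groups, coloured by table; squares nearly coincide for most genes and part for MBNL3, at 17.4 and 11.0 CPM, for TAB2, at 12.4 and 8.88 CPM, and for DLG3 in the FLAG-TASOR2 table, at 8.56 CPM.

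The position of the FLAG-TASOR group between knockout and control can be given only as a description. Subtracting the fold changes of the 2 tables removes the common controls in principle. By absolute fold change 4 genes (MBNL3, TAB2, CCDC80 and CRACD) were nearer to the controls with FLAG-TASOR and 5 were farther. For TAB2 and FIG4 the 2 folds were nearly equal, with differences of 0.003 and -0.01, so their place in these counts has little weight. The median absolute difference was 0.61 (log2) for the 9 genes and 0.62 for the other 51 genes listed in both tables. For 0 of the 9 genes did the difference exceed the sum of both approximate SEs, an upper bound whatever the correlation of the folds, against 7 of the other 51. The nearest to that sum was MBNL3, with a difference of 0.97 against 1.19, followed by PPFIBP1, with 0.91 against 1.14. With the root of the summed squares in its place, which takes the 2 folds as independent, the differences of both these genes were larger than the SE (0.85 and 0.81). The folds share their controls and would tend to vary together, so both the sum and the root may overstate the SE. The difference itself could not be tested, since the tables hold no value per library.

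**Figure D3:**
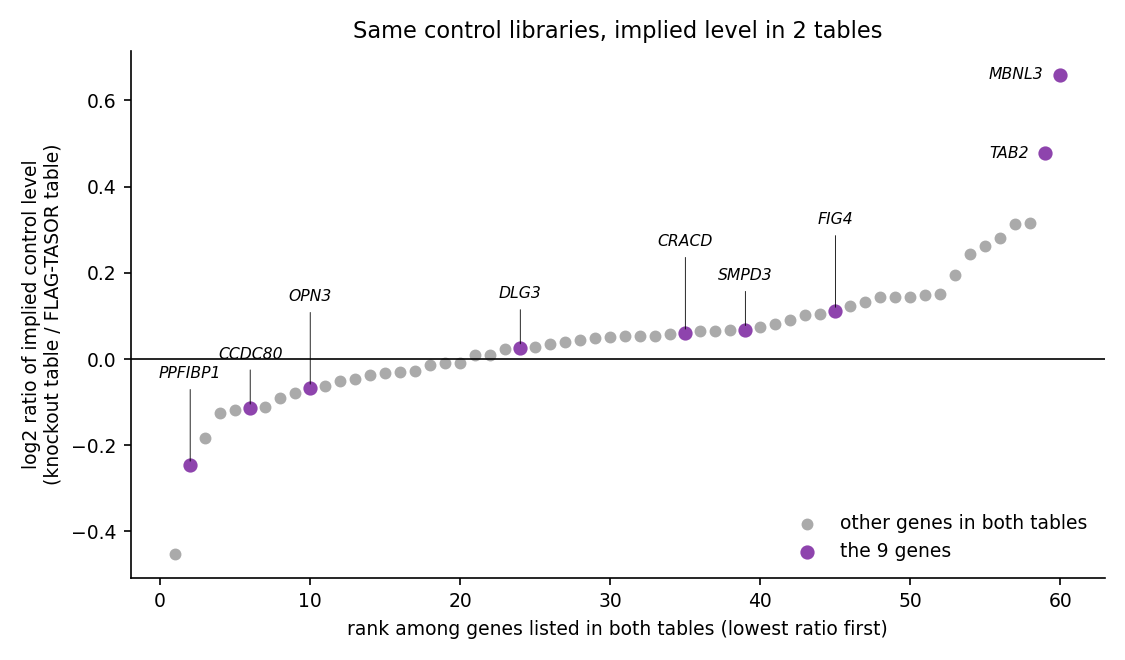
Log2 ratio of the control level implied by the knockout table to that implied by the FLAG-TASOR table (y axis) for the 60 genes listed in both, ordered by that ratio (x axis, rank). Purple points are the 9 genes and grey points the other 51; MBNL3 at 0.66 and TAB2 at 0.48 lie above all other points, and 6 of the 9 lie within 0.2 of 0.

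In wild-type cells expressing FLAG-TASOR2, 2 of the 9 genes were listed, DLG3 as lower and PPFIBP1 as higher, in the directions they had in both knockout groups. The background there was 3.76% of 14001 genes listed as lower and 2.56% as higher. In the authors' deposited table DLG3 was at -1.14 (approximate SE 0.44, p 0.0404, adjusted p 0.383). PPFIBP1 was at 1.25 in the authors' deposited table (approximate SE 0.47, p 0.0364, adjusted p 0.372). The implied levels were 8.56 CPM in the controls and 3.87 CPM with FLAG-TASOR2 for DLG3, and 3.56 and 8.48 CPM for PPFIBP1. The control level of DLG3 was 1.47-fold higher in the knockout table than in this one, while that of PPFIBP1 was 3.21 and 3.81 CPM in the knockout tables, on either side of its value here.

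The other 7 genes were not listed for FLAG-TASOR2. Listing needed a log2 mean expression above 1. For 6 of them (MBNL3, TAB2, CCDC80, SMPD3, OPN3 and FIG4) the control libraries alone would put the mean above that limit at any fold, the lowest being 2.15 for TAB2. Their absence therefore reflects a fold at or under the limit, a p of 0.05 or more, or a row not analysed here, and not low expression. For CRACD, with 0.70 CPM in the controls, low expression could have kept it off the list. Of the other 51 genes listed in both knockout tables, 26 were also listed for FLAG-TASOR2. Whether the 9 genes differ in FLAG-TASOR2 cells from the knockout was not tested, because unlisted genes have no value.

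The genes whose pair of fold changes lay nearest to each of the 9, over 2 comparisons and by Euclidean distance on the log2 scale, were mostly not related by family. FIG4 lay nearest to IFT22, a gene of intraflagellar transport (distance 0.14, with -1.23 and -1.29 in the authors' deposited tables). TAB2 lay nearest to ITGAM (distance 0.21) and CCDC80 to PRICKLE1, a planar cell polarity gene (distance 0.25). OPN3 lay nearest to the desmosomal cadherin gene DSG3 (0.29), MBNL3 to the noncoding MACC1-DT (0.29), SMPD3 to the ciliary gene TMEM67 (0.34) and DLG3 to the ubiquitin ligase gene TRIM67 (0.38). CRACD and PPFIBP1 lay nearest to genes without a symbol in the files, ENSG00000267383 (0.18) and ENSG00000233461 (0.20). ITGAM, TRIM67 and PRICKLE1 were also listed as lower for FLAG-TASOR2, at -4.62, -6.21 and -2.05 in the authors' deposited table. TAB2 and CCDC80 were not listed there, and DLG3 was at -1.14 in the authors' deposited table. The nearest genes of CRACD and PPFIBP1 were listed there as higher, at 3.26 and 1.88 in the authors' deposited table. CRACD was not listed there, and PPFIBP1 was at 1.25 in the authors' deposited table.

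Few functional partners of the 9 genes were listed, as few genes were in general, and the shares below were not tested. Of 77 partner genes in 9 lists, 1 was listed in the knockout (1.30%, beside 1.92% of all genes tested), 1 with FLAG-TASOR (1.30%, beside 1.87%) and 3 with FLAG-TASOR2 (3.90%, beside 6.31%), and none had an adjusted p below 0.05 (0 genes). How many partners were tested by the authors is not given in the tables. The receptor phosphatase gene PTPRF, a liprin partner, was at -2.88 (approximate SE 1.02) in the knockout, and the collagen gene COL14A1 was at -4.78 (approximate SE 1.54) with FLAG-TASOR, in the authors' deposited tables. With FLAG-TASOR2 the fibronectin gene FN1 was at -3.41 (approximate SE 0.82), the lipid phosphatase gene MTM1 at -1.45 (approximate SE 0.51) and KANK1, which encodes a cortical adaptor protein, at 1.29 (approximate SE 0.35) in the authors' deposited table. Neither MBNL1 and MBNL2, partners of MBNL3, nor TAB1 and TAB3, partners of TAB2, were listed in any of the 3 tables. The same held for SMPD1, SMPD2 and SMPD4 beside SMPD3, and for DLG1, DLG2, DLG4 and DLG5 beside DLG3.

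All 9 genes are protein-coding and lie on 7 chromosomes in GENCODE 29 (GRCh38). MBNL3 (132369317 to 132489968, minus strand) and DLG3 (70444861 to 70505490, plus strand) are on chromosome X, and TAB2 (149218641 to 149411613, plus strand) and FIG4 (109691312 to 109825428, plus strand) are on chromosome 6. CCDC80 lies on chromosome 3 (112596794 to 112649530, minus strand), SMPD3 on chromosome 16 (68358325 to 68448688, minus strand) and OPN3 on chromosome 1 (241590102 to 241677376, minus strand). CRACD lies on chromosome 4 (56049073 to 56328625, plus strand) and PPFIBP1 on chromosome 12 (27523431 to 27695564, plus strand).

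The 9 genes were long, but they were picked by name and all are protein-coding. Whether length or a related property entered that choice is not known. Their annotated spans ran from 52.7 kb (CCDC80) to 279.6 kb (CRACD), with a median of 120.7 kb. The other 37 protein-coding genes listed in both tables had a median of 53.8 kb, those of the knockout table alone 47.3 kb and those of the FLAG-TASOR table alone 51.3 kb. The median exon number of the longest transcript was 9 for the 9 genes and 8 for the other 37, from 4 in OPN3 to 29 in PPFIBP1. The genes had a median of 8 annotated transcript starts, against 5 for the other 37, and PPFIBP1 had 18. No test was made, because the 9 genes were chosen by name.

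**Figure D4:**
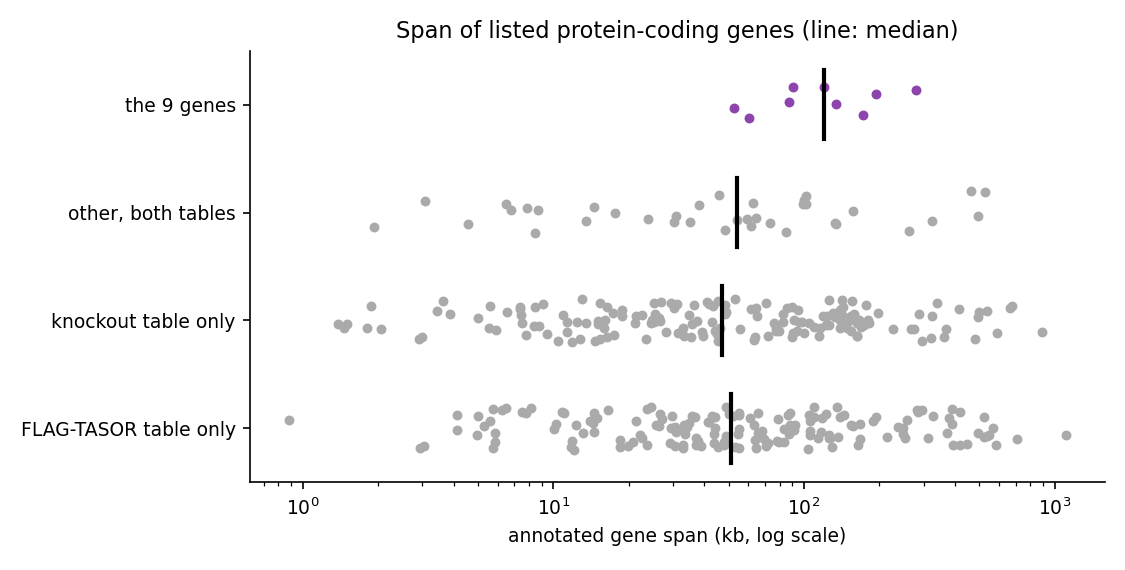
Annotated span in kb on a log scale (x axis) of listed protein-coding genes, 1 point a gene, in 4 sets (y axis), with a black line at each median. The 9 genes lie between 52.7 and 279.6 kb with a median of 120.7 kb, and the medians of the 3 other sets lie between 47.3 and 53.8 kb, with points on both sides of the range of the 9 genes.

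Within 1 Mb, 7 of the 9 genes had a listed neighbour in some table, 11 neighbours in all. By protein-coding genes alone, 9 of the 198 annotated within 1 Mb were listed in any table (4.55%), close to the 4.90% of all other annotated protein-coding genes. None of the 198 was listed in both knockout tables (0%), beside 0.186% of all others, so the count of 0 is near the background. Of the 11 neighbours, 5 were listed in 1 of the knockout tables, and of these 3 had the direction of the gene beside them and 2 the opposite one. LRP11, a lipoprotein receptor-related gene 407.2 kb from TAB2, was at -2.74 (approximate SE 1.00) in the knockout and at -3.54 (approximate SE 0.97) with FLAG-TASOR2 in the authors' deposited tables. The germline gene TEX11, 23.45 kb from DLG3, was at -2.91 (approximate SE 0.88) with FLAG-TASOR in the authors' deposited table, and CFAP44, a gene of motile cilia near CCDC80, was at -1.89 (approximate SE 0.70).

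Against the direction of the gene beside them, CCDC162P near FIG4 was listed as higher at 1.79 (approximate SE 0.43) in the knockout and 1.36 (approximate SE 0.41) with FLAG-TASOR2, and the calcium channel gene ITPR2 near PPFIBP1 was listed as lower at -1.74 (approximate SE 0.38) with FLAG-TASOR, in the authors' deposited tables. The remaining 6 neighbours were listed for FLAG-TASOR2 only. They included FIRRE, a noncoding gene of chromosome X near MBNL3, at -1.30 (approximate SE 0.41), and KLHL42 near PPFIBP1 at -2.06 (approximate SE 0.49), in the authors' deposited table. The others were PPP1R14C near TAB2 at -2.15, ABHD10 and CD96 near CCDC80 at -1.16 and 2.30, and HSD11B2 near SMPD3 at -2.60, in the authors' deposited table. OPN3 and CRACD had no listed neighbour within 1 Mb.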

How the data were processed

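The 9 genes and the partner, marker and motif lists were chosen with earlier results of these data known. Per the submitters' processing notes, the authors used hg38 with STAR 2.7.8 and Salmon as well as DESeq2 and edgeR, and no role is given for any of them. Per the file headers, the 3 deposited tables have 5 values a gene: the log2 fold change, the mean expression as logCPM (log2), the F score, the p-value and its adjusted form. Such columns match the output of an edgeR quasi-likelihood F-test by the authors, although no source used here says which tool made the tables. No deposited p-value was recomputed. All listed genes passed 3 limits that were checked on the values: unadjusted p under 0.05, logCPM over 1, and log2 fold change over 1 in absolute size.

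From these values an approximate SE was obtained by dividing the size of the log2 fold change by the square root of the deposited F score. The number of genes tested was the adjusted p divided by the unadjusted p of the top gene, and for the FLAG-TASOR table from the highest row number. The control level was computed as 2 times the mean CPM divided by 1 plus the fold, taking the deposited log2 mean expression as a mean over groups of equal weight. This treatment was chosen after the data had been seen. Taking it as a mean of logs raised the SD of the gap between the 2 tables' control levels from 0.16 to 0.37. Named genes were the 9 genes, the nearest gene to each by fold pair, listed neighbours within 1 Mb, listed partners, TASOR and TASOR2. TFPI, also in that rule, has no values of its own in the text and counts among the other genes listed in both tables. HBE1, CD14 and the overlapping genes were named outside the rule, after their values or listing had been seen. Annotation came from GENCODE 29, matched by Ensembl identifier for 257 of 268, 253 of 261 and 853 of 884 listed genes. Python 3.11.15, pandas 2.3.3, scipy 1.17.1 and matplotlib 3.10.9 were used. Tables of transposable elements were not used here.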

Additional observations from a re-analysis of the deposited data

How the results depend on the processing

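No paired analysis was possible because single libraries have no values in the tables: neither a replicate block nor a fit without a library could be made. The 9 genes listed in both knockout tables became 5 with an absolute log2 fold change above 1.5 in both (CCDC80, CRACD, DLG3, MBNL3 and TAB2), 1 with an unadjusted p below 0.01 in both (SMPD3), and 5 with a mean expression at or above the table median in both (CCDC80, DLG3, FIG4, OPN3 and SMPD3). The 2 listed for FLAG-TASOR2 became 0 under each of the same 3 limits. With an adjusted p limit of 0.1, the count of the 9 genes past it stayed at 0 in each table. Leaving out 1 gene at a time, the median absolute log2 fold change ranged from 1.80 to 2.22 in the knockout, from 2.10 to 2.29 with FLAG-TASOR and from 1.14 to 1.25 with FLAG-TASOR2. The count of genes whose 2 knockout folds differed by more than their SE was 0 with summed SEs and 2 with the root of summed squares. The difference in median exon number from the other genes listed in both tables was 2, and 1 with protein-coding genes only. An SE computed from the p-value through a t distribution differed from that based on F by at most 0.000704%. The degrees of freedom for it were derived from the same F score and p-value, so this agreement was fixed in advance. It checks the arithmetic only and gives no support to the SE.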
